A study of Saccharomyces cerevisiae with 8 samples.

Results

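The genes described here encode the proteins of the large, 60S subunit of the cytosolic ribosome of Saccharomyces cerevisiae. They were taken by name: every gene with an assigned probe set whose symbol is RPL or RPP0, RPP1 or RPP2, followed by a number and an optional A or B. The rule matched 76 of the 5449 genes measured. One of them, RPP1, encodes a subunit of ribonuclease P and not a ribosomal protein. It is described apart, and the counts below are over the other 75 genes.

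The large subunit joins amino acids into protein. It holds the peptidyl transferase centre, the tunnel through which the new chain leaves, and a stalk that recruits the elongation factors. Yeast kept many of these genes as A and B copies from an ancient genome duplication, and the proteins of many pairs are identical or nearly so. The genes are transcribed together under Rap1, Fhl1 and Ifh1, and in yeast their transcripts are known to rise with growth rate and good nutrients and to fall in starvation and stress.

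Affymetrix expression arrays, 8 in all, measured total RNA of 4 groups with 2 arrays each: 1 group labelled parental and evolved strains 1, 2 and 3. The parent was given as BY4742, a haploid laboratory strain that by its published genotype is of mating type alpha and carries deletions in HIS3, LEU2, LYS2 and URA3. Each evolved strain was an individual isolate taken after about 450 generations in CM broth, whose glucose was 2% and whose ammonium sulfate was 0.5%, kept at 30 °C by moving 10 µl daily into fresh medium, and 1 description of growth was given for all groups. Each array is titled as a biological replicate. The labels do not state the density at harvest or how the replicate cultures were made, and p-values rest on the scatter of these arrays alone.

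Levels are log2 of the deposited intensity, and a difference of 1 on this scale is a 2-fold change. Several marker genes went against the BY4742 genotype in the arrays labelled parental and in the evolved arrays, and some others did not. LYS2 stood at 9.09 and 9.04 in the former and averaged 11.48 in the latter, above background on all 8 arrays. The a-factor gene MFA1 averaged 12.36 and 10.47, and MFA2 12.57 and 6.96. STE2, a gene of mating type a, averaged 9.17 and 6.71. Of the genes of mating type alpha, MF(ALPHA)1 averaged 4.08 and 5.52, MF(ALPHA)2 4.88 and 5.51, and STE3 7.11 and 7.59. MET17, which BY4742 carries, averaged 4.33 and 4.04 and passed background on 2 of all 8 arrays. URA3 passed it on 0 arrays, and LEU2, at 5.33 and 5.29, on all 8. The 2 arrays labelled parental stand behind every difference from parental below, and only the comparisons among evolved strains do without them. RNA quality, read as the gap between 3′ and 5′ probe sets of 7 control transcripts, moved with the groups too. In 5 transcripts the gap was wider on the arrays labelled parental and in 2 on the evolved ones (median evolved minus parental -0.26 on the log2 scale), and its part in the results was not tested. The arrays hold no measure of RNA per cell, so that less RNA per cell and fewer cells expressing a gene cannot be told apart.

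Of 82 genes in the current annotation that fit the rule, 6 had no probe set of their own here, and the partner of each was measured by a probe set marked as shared between transcripts. In all, 12 of the 75 genes were read by such a shared probe set, so that the reading may hold both copies of the pair. These were RPL1B, RPL2A, RPL4A, RPL7A, RPL11B, RPL14B, RPL18B, RPL20B, RPL21A, RPL35A, RPL41A and RPL42B. Some also had a unique probe set, which was less bright. In RPL2A, RPL11B, RPL20B and RPL21A it gave a larger rise in the evolved strains than the shared set. In RPL14B (-0.65 against 0.25) and RPL18B (0.38 against 1.64) it gave a lower value. All 75 were above background on all 8 arrays. Their mean levels ran from 8.48 to 13.69 in the arrays labelled parental and from 9.45 to 14.23 in the evolved arrays. The median place of a 60S gene among all genes moved from the 88.6th to the 97.1th percentile. In the evolved arrays 19 genes lay within 1 log2 unit of the array maximum, against 0 in the arrays labelled parental, so that rises near the top of the range may be understated.

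Transcripts of the 60S proteins were higher in the evolved strains almost without exception. On average over the 3 strains, 73 of 75 genes rose and 2 fell, where 43.3% of all genes rose and 43.4% fell (limma, Benjamini-Hochberg adjusted p under 0.05). The median log2 difference was 0.93, or 1.90-fold, against -0.0056 over all genes. A rise of at least 2-fold was seen in 35 of the 75, and in 10.9% of all genes. In 69 genes the 6 evolved arrays all lay above both arrays labelled parental, as in 38.2% of all genes. In 2 genes all lay below, as in 38.9% of all genes. The 4 genes whose groups overlapped were RPL6B, RPL23A, RPL33B and RPL36A. Standard errors were at most 0.06, apart from 0.22 for RPL41A. With the strain as a random block, which takes the closeness of 2 arrays of a strain into account, 67 genes rose and 0 fell. The share of all genes called under that fit is not given here.

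**Figure D1:**
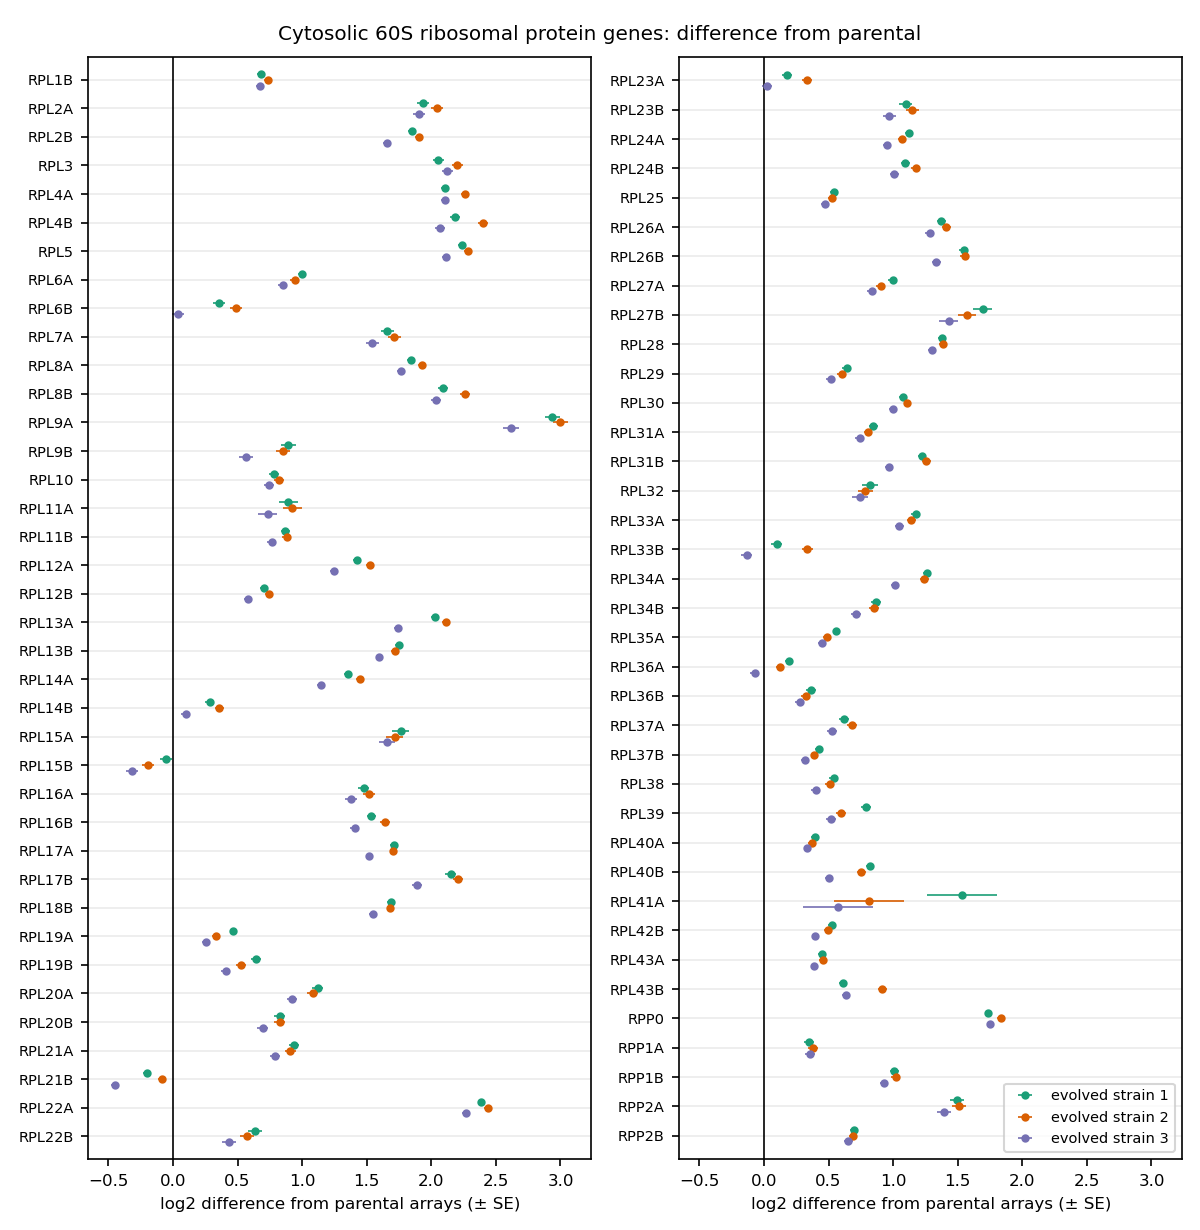
Log2 difference from the 2 arrays labelled parental for each of the 75 genes, with 1 point per evolved strain (2 arrays each) and its standard error, ordered by the number in the name. Nearly all points lie right of 0, from RPL9A near 3 to RPL21B and RPL15B left of 0, and the strain 3 point is usually the leftmost of its gene.

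The largest rise was of RPL9A, which encodes a protein at the base of the stalk. It read 10.30 and 10.12 in the arrays labelled parental, 13.14 and 13.15 in strain 1, 13.19 and 13.23 in strain 2, and 12.80 and 12.86 in strain 3, a rise of 2.85 ± 0.05 (log2, SE; 2 and 6 arrays), or 7.22-fold, with adjusted p = 1.24e-08 by limma. All evolved arrays lay far above both others, and strain 3 was the lowest of them. RPL22A followed with 11.16 and 11.13 in the arrays labelled parental, and 13.52, 13.54, 13.59, 13.58, 13.42 and 13.40 in the arrays of strains 1, 2 and 3 in turn, a 5.15-fold rise. No overlap was seen in either gene.

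Genes for proteins at the peptidyl transferase centre and the wall of the exit tunnel, chosen by role after their values were seen, spanned rises from 0.63 to 2.22. RPL3, whose protein reaches towards the catalytic centre, read 11.52 and 11.40 in the arrays labelled parental, 13.53 and 13.50 in strain 1, 13.65 and 13.67 in strain 2, and 13.58 and 13.59 in strain 3. Its rise was 2.13 ± 0.04 (log2, SE), or 4.37-fold. RPL2A, for another protein close to that centre, read 11.73 and 11.85, then 13.73, 13.72, 13.81, 13.86, 13.71 and 13.69 in the evolved arrays in strain order, a rise of 1.96, and RPL2B rose by 1.80. The protein of RPL4A and RPL4B lines the tunnel. RPL4A read 11.30 on both arrays labelled parental and 13.41, 13.39, 13.56, 13.55, 13.41 and 13.40 in the evolved arrays, a rise of 2.16. RPL4B read 9.54 and 9.55, then 11.77, 11.68, 11.92, 11.97, 11.60 and 11.62, a rise of 2.22. Both readings thus moved by nearly the same amount, but RPL4A was read by a shared probe set, so that its reading may hold both copies. RPL17B, for a further tunnel protein, read 10.48 and 10.55, then 12.66, 12.68, 12.73, 12.71, 12.45 and 12.36, a rise of 2.08, and RPL17A rose by 1.64. RPL39, a very small protein at the same wall, rose by 0.63, from 12.87 and 12.91 to between 13.39 and 13.72. The groups did not overlap in any of these genes. Outside the centre and tunnel, RPL8B also rose more than 4-fold (4.38-fold), from 11.03 and 11.11 to 13.14 and 13.18 in strain 1, 13.32 and 13.34 in strain 2, and 13.09 and 13.11 in strain 3.

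The proteins that carry 5S ribosomal RNA into the subunit were unequal in size of change. RPL5 read 11.22 and 11.23 in the arrays labelled parental, 13.46 on both arrays of strain 1, 13.49 and 13.53 in strain 2, and 13.36 and 13.33 in strain 3, a rise of 2.21 ± 0.02 (log2, SE), or 4.63-fold. Its partner in that complex, RPL11, rose by 0.85 (RPL11A) and 0.84 (RPL11B, shared probe set), and a second probe set of RPL11B gave 1.22. RPL10, which joins the subunit as one of the last proteins, rose by 0.78, from 13.24 and 13.33 to between 14.01 and 14.11.

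The stalk genes all rose, by between 0.36 and 1.77. RPP0, which anchors the stalk to the subunit, read 11.74 and 11.76 in the arrays labelled parental, 13.47 and 13.50 in strain 1, 13.58 and 13.59 in strain 2, and 13.50 on both arrays of strain 3, a 3.42-fold rise. Of the acidic proteins that form dimers on RPP0, RPP2A rose most, from 12.30 and 12.46 to 13.83, 13.91, 13.88, 13.89, 13.76 and 13.78 in strain order. RPP1B went from 12.54 and 12.56 to 13.54, 13.58, 13.60, 13.54, 13.48 and 13.48. RPP2B went from 13.55 on both arrays to 14.21, 14.28, 14.23, 14.24, 14.19 and 14.21. The smallest rise was of RPP1A, from 13.53 on both arrays to 13.83, 13.93, 13.90, 13.92, 13.86 and 13.90, or 1.28-fold. In none of the 5 did the groups overlap. RPL12A and RPL12B, whose protein sits beside RPP0, rose by 1.40 and 0.68.

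Among genes for proteins near the mouth of the tunnel, where targeting factors and chaperones dock, the rises lay on both sides of the 60S median. RPL25, a docking site of the signal recognition particle, rose by 0.51, from 13.58 and 13.56 to between 14.04 and 14.12. RPL35A rose by 0.50 (shared probe set), RPL31A and RPL31B by 0.80 and 1.15, and RPL26A and RPL26B by 1.36 and 1.48. RPL19A, RPL19B, RPL24A and RPL24B, which reach over to the small subunit, rose by 0.35, 0.52, 1.05 and 1.09. RPL28, in which mutations give resistance to cycloheximide, rose by 1.35, and RPL29 by 0.59. The ubiquitin fusion genes RPL40A and RPL40B, which yield a ribosomal protein and free ubiquitin, rose by 0.37 and 0.69.

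With the probe sets used, only RPL15B and RPL21B were called lower. RPL14B, called higher through its shared probe set, gave -0.65 with its unique one. RPL21B read 11.98 on both arrays labelled parental, 11.79 and 11.77 in strain 1, 11.89 and 11.90 in strain 2, and 11.51 and 11.55 in strain 3. The difference was -0.25 ± 0.02 (log2, SE; adjusted p = 5.76e-05 by limma). RPL15B read 11.66 and 11.61, then 11.55 and 11.61, 11.45 and 11.42, and 11.25 and 11.37 in the same order, a difference of -0.19 ± 0.04 (adjusted p = 0.00323). In RPL21B the highest evolved array, 11.90, stayed below both parental readings, whereas in RPL15B it came level with the lower of them to 2 decimals. Both calls were lost with the strain as a random block, at adjusted p = 0.15 for RPL21B and 0.305 for RPL15B by limma. The rises of RPL33B and RPL36A, 0.10 and 0.08, were the smallest called and were lost when arrays were centred on non-ribosomal genes. That of RPL33B was also lost when any single array other than parental replicate 1 was left out (adjusted p from 0.0544 to 0.253 by limma). That of RPL36A was lost without parental replicate 1, either array of strain 2, or replicate 1 of strain 1 or 3 (adjusted p from 0.0519 to 0.0947). RPL36A had no rise, at -0.0009, under quantile normalization over the yeast probe sets.

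**Figure D2:**
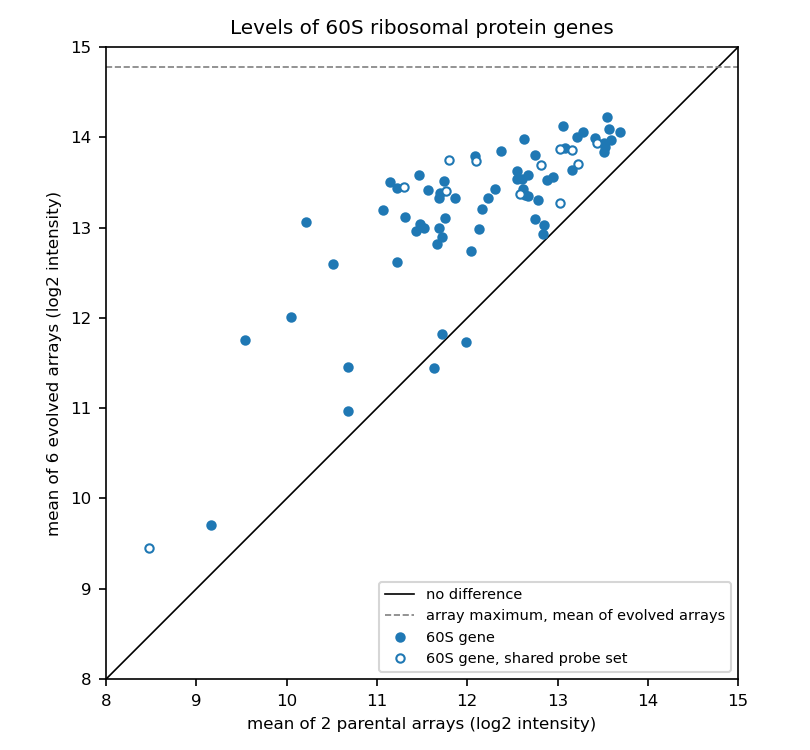
Mean log2 intensity of each of the 75 genes in the 2 arrays labelled parental (x axis) and the 6 evolved arrays (y axis), with open points for shared probe sets, a line of no difference and a dashed line at the mean array maximum of the evolved arrays. All but 2 points lie above the line of no difference, and 19 genes come within 1 unit of the array maximum in the evolved arrays.

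RPL41A stood apart for its replicate spread. It encodes the shortest ribosomal protein, a peptide that bridges the subunits, and was read by a shared probe set. Its arrays read 8.40 and 8.56 in the group labelled parental, 10.49 and 9.53 in strain 1, 9.28 and 9.30 in strain 2, and 8.99 and 9.12 in strain 3. The 2 strain 1 arrays differed by 0.95, while no other 60S gene differed by more than 0.23 between arrays of a group. Its rise of 0.97 ± 0.22 (log2, SE) had adjusted p = 0.00482 by limma, and adjusted p = 0.27 with the strain as a random block.

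The size of the rise followed the number in the gene name. Ribosomal proteins were numbered from their mobility in gels, so that low numbers broadly mark larger proteins. This grouping was made after the values had been seen and is given without a test. The 14 genes RPL1 to RPL9 had a median log2 difference of 1.90, and 10 of them rose at least 2-fold. The 18 genes RPL10 to RPL19 had a median of 1.36, the 17 genes RPL20 to RPL29 a median of 1.04, and the 21 genes RPL30 to RPL43 a median of 0.63. In the last group no gene passed 1.17 (RPL34A) and 4 rose at least 2-fold, whereas RPL6B, at 0.30, was the lowest of the first. The correlation of number and difference was r = -0.51 across 70 RPL genes, which share the same arrays and are not independent replicates.

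Signal level moved with this pattern. The median level in the arrays labelled parental was 11.30, 11.98, 12.56 and 12.95 in these groups from low to high numbers, while in the evolved arrays the medians lay between 13.29 and 13.56. Signal depends on the probes as well as on the transcript. Across the 75 genes the parental level and the difference correlated at r = -0.55, a value that is coupled because both contain the parental arrays. Transcript length, place in the array range and level in the arrays labelled parental cannot be told apart here. The 40S genes showed medians of 1.25 for RPS0 to RPS9, 0.68 for RPS10 to RPS19 and 0.66 for RPS20 to RPS31, with r = -0.34 across 52 genes.

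**Figure D3:**
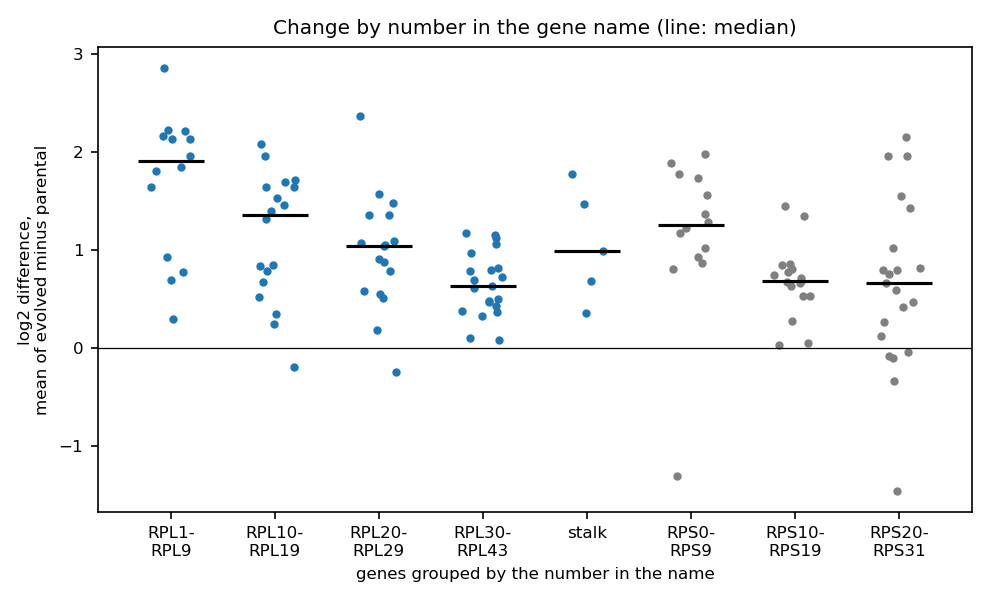
Log2 difference (mean of evolved minus parental) of each 60S gene (blue) and 40S gene (grey), grouped by the number in the name, with the median of each group as a line. The medians of the RPL groups step down from 1.90 to 0.63, and the RPS groups from 1.25 to 0.66.

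Both copies could be set side by side for 29 pairs. The ratio of A to B within each array was fitted over the 52 A and B pairs with both copies measured, found by a shared gene name, of which 21 encode 40S proteins and 2 encode other proteins. The ratio differed between evolved strains and parental in 25 of the 29 pairs, beside 92.3% of these 52 pairs and 21 of the 21 40S pairs. The share of unequal 60S pairs was thus no higher than in this set. The set includes the 29 pairs themselves and is nearly all ribosomal, so that it cannot show what is usual for other gene pairs. The A gene had the higher change in 14 pairs and the B gene in 11. In 27 pairs both copies were called higher. The median size of the inequality was 0.35 on the log2 scale, and it reached 2-fold in 6 pairs. All 25 called pairs kept the sign of the difference in each of the 3 strains, which share their control arrays.

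RPL9 was the most unequal pair. RPL9B read 10.77 and 10.60 in the arrays labelled parental and 11.57, 11.58, 11.51, 11.56, 11.24 and 11.26 in the evolved arrays in strain order, a rise of 0.77, against 2.85 for RPL9A. The change of A exceeded that of B by 2.08 ± 0.03 (log2, SE), or 4.23-fold, with adjusted p = 2.85e-13 by limma. In RPL15 the copies moved apart: RPL15A read 12.19 and 11.98 in the arrays labelled parental and 13.84, 13.86, 13.80, 13.80, 13.75 and 13.74 in the evolved arrays, while RPL15B fell, so that the changes differed by 1.90 ± 0.05. In RPL22 they differed by 1.82 ± 0.04, with RPL22B going from 9.23 and 9.09 to 9.79, 9.79, 9.75, 9.71, 9.54 and 9.64. In yeast the RPL22 protein is known to hold back splicing of the RPL22B transcript.

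RPL21, RPL14 and RPL33 made up the rest of the pairs beyond 2-fold. RPL21A, read by a shared probe set, went from 12.87 and 12.76 to 13.74, 13.76, 13.72, 13.73, 13.60 and 13.61 in strain order while RPL21B fell, a difference of 1.12 ± 0.03. With its unique probe set RPL21A gave a difference from RPL21B of 1.56. RPL14A went from 11.67 and 11.70 to 13.02, 13.06, 13.13, 13.14, 12.84 and 12.82. Its partner RPL14B depended on the probe set: the shared set gave 13.05 and 13.01 in the arrays labelled parental and 13.31, 13.32, 13.39, 13.38, 13.16 and 13.10 in the evolved arrays, a rise of 0.25. The unique set went from 12.19 and 12.23 to 11.69, 11.72, 11.63, 11.58, 11.35 and 11.42, a difference of -0.65. The changes of RPL14A and RPL14B differed by 1.07 with the shared set and 1.96 with the unique one. RPL33A went from 12.36 and 12.27 to 13.49, 13.48, 13.45, 13.45, 13.36 and 13.36. RPL33B read 11.78 and 11.66 in the arrays labelled parental, inside the evolved span of 11.58 to 12.07, and the changes differed by 1.02 ± 0.03.

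Where the B gene rose more, the largest inequality was in RPL23, with RPL23A at 0.18 and RPL23B at 1.07, a difference of -0.89 ± 0.05 (A minus B, log2, SE). RPL27 followed at -0.65 and the stalk pair RPP1A and RPP1B at -0.62. The changes of RPL4, RPL11, RPL16 and RPL24 were not called unequal on average over the strains, at -0.06 ± 0.03, 0.01 ± 0.06, -0.07 ± 0.04 and -0.05 ± 0.03. RPL4 and RPL11 each included a shared probe set, so that equal readings there may hold both copies. With its unique probe set RPL11B rose by 1.22, against 0.85 for RPL11A. RPL20 was called with A ahead by 0.26 through the shared set of RPL20B. The unique set of RPL20B rose by 1.11, against 1.04 for RPL20A, so that the order turned.

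**Figure D4:**
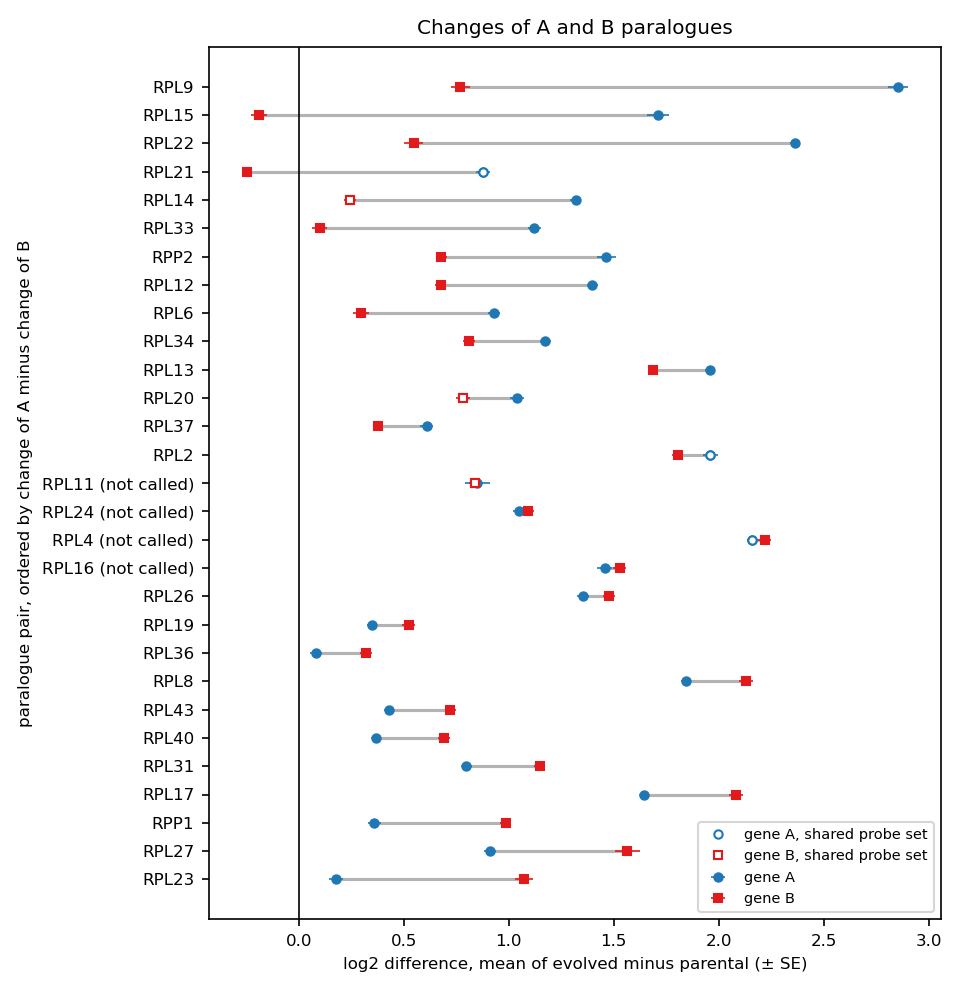
Log2 difference (mean of evolved minus parental, with its standard error) of the A gene (circles) and B gene (squares) of 29 pairs, ordered by the change of A minus the change of B, with open symbols for shared probe sets. RPL9, RPL15 and RPL22 have the longest bars at the top with A ahead, RPL23 the longest at the bottom with B ahead, and 4 pairs are marked as not called.

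Each evolved strain was set against the parental arrays in turn. Against the same control arrays, 72 genes rose and 1 fell in strain 1, 73 rose and 2 fell in strain 2, and 68 rose and 3 fell in strain 3. Among all genes 40.6%, 42.5% and 43% rose and 43.9%, 42.6% and 41.1% fell in these strains. The median differences were 1.00, 0.92 and 0.83, with 37, 36 and 30 genes up at least 2-fold. Of all 5449 genes, 553, 651 and 589 were up at least 2-fold in these strains. The large-subunit genes not called in strain 3 were RPL6B, RPL23A, RPL36A and RPL41A. Those not called in strain 1 were RPL15B and RPL33B. The falls in strain 3 were of RPL15B, RPL21B and RPL33B.

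Strain 3 had the lowest 60S transcript levels of the evolved strains. It was lower than strain 2 in 75 of 75 genes by value. By limma 39 were called lower and 0 higher, where 14.5% of all genes were lower and 17.5% higher. At an unadjusted p under 0.05 by limma the numbers were 57 and 0, beside 1072 and 1399 of all 5449 genes. Against strain 1, strain 3 was lower in 70 of 75, with 48 called lower and 0 higher, beside 24.4% and 33.1% of all genes. The unadjusted numbers were 55 and 0, beside 1447 and 1949 of all 5449 genes. The median differences were -0.14 from strain 2 and -0.13 from strain 1, against 0.02 and 0.04 over all genes. The shift was thus small. In strain 3, 31 of the 60S genes were called lower than in both others, and the share of all genes that were is not given here. The 40S genes did likewise, with 28 and 30 of 52 called lower and 0 higher in the same comparisons (limma). Between strains 2 and 1, 13 genes were higher and 4 lower in strain 2, beside 29.8% and 22.9% of all genes, with a median of 0.01. The number of genes called in the comparison with strain 2 fell to 22 without either array of strain 2 and to 23 without either array of strain 3. In that with strain 1 it fell to 30 without replicate 2 of strain 3. Called higher in strain 3 were 0 genes under each of the 16 alternatives, of 17 run, that compared evolved strains. The fit with the strain as a random block gave no such comparison.

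**Figure D5:**
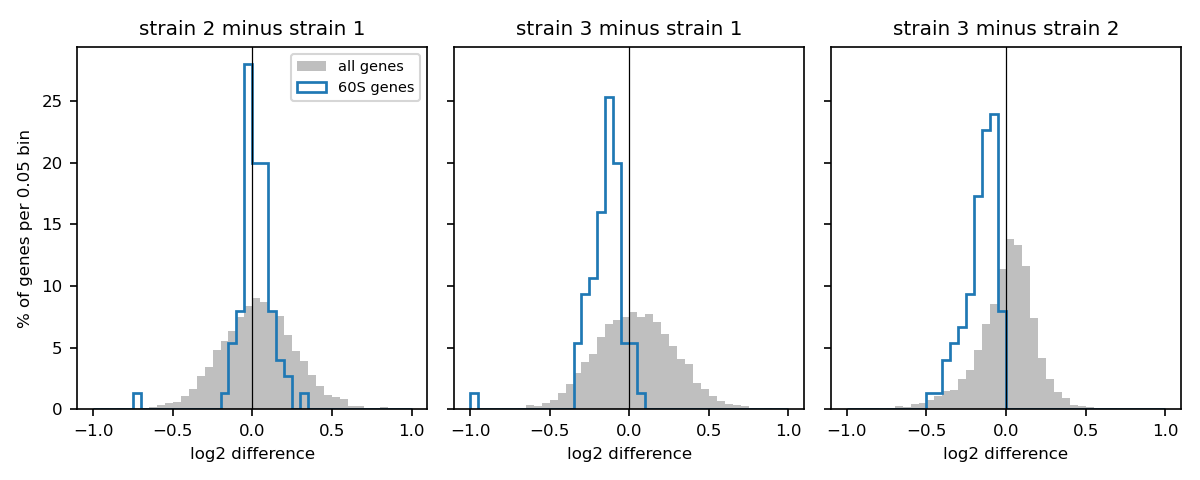
Share of genes (%) in bins of 0.05 of the log2 difference between evolved strains, for all genes (grey) and the 75 genes of the 60S subunit (blue line), with differences beyond 1 in either direction not drawn. The blue line sits left of 0 in both comparisons with strain 3, and around 0 for strain 2 against strain 1.

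A moderated F test called 56 of 75 genes different among the evolved strains, beside 68.9% of all genes, so that the number was near the background. RPL41A had the widest range of strain means, 0.96, with the replicate spread given above. RPL33B followed with 0.47: strain 1 read 11.82 and 11.81, strain 2 read 12.07 and 12.04, and strain 3 read 11.59 and 11.58. By limma it was called higher than parental in strain 2 (0.34) and lower in strain 3 (-0.14). RPL6B read 11.01 and 11.05, 11.21 and 11.12, and 10.72 and 10.71 in strains 1, 2 and 3, a range of 0.45, which put strain 3 at the parental readings of 10.63 and 10.72. RPL13A read 12.10 and 12.05, 12.16 on both, and 11.79 and 11.78, all far above its parental readings of 10.05 on both arrays. The ranges of RPL9A, RPL13A and RPL21B were 0.38, 0.37 and 0.36, each with strain 3 lowest. Of the 19 genes not called, 4 were stalk genes (RPP1A, RPP1B, RPP2A and RPP2B), with ranges of at most 0.12.

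Other genes of the ribosome pathway were counted in the same comparison. Of the 52 genes of the 40S subunit 44 rose and 4 fell, with a median of 0.80. Of 7 dedicated chaperones of large-subunit proteins 4 rose and 3 fell: RRB1, which binds the RPL3 protein, rose by 1.18 and LOC1 by 0.80, whereas SYO1, which carries the RPL5 and RPL11 proteins into the nucleus, fell by 1.74 on the log2 scale, from a mean of 8.13 to 6.39. SQT1, the chaperone of RPL10, and ACL4, that of RPL4, fell by 0.49 each. Among 58 measured assembly and export factors of the 60S subunit 34 rose and 21 fell (median 0.21), from URB1 at 2.61 and RIX1 at 1.89 to IPI1 at -1.69 and MRT4 at -1.72. MRT4 is the assembly factor that holds the place of RPP0. The background for these lists is the 43.3% and 43.4% given above.

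Of 17 measured regulators of ribosomal protein genes 8 were higher and 7 lower (median 0.19), near the background of 43.3% and 43.4% of all genes. CRF1, a corepressor of these genes, fell by 2.19 on the log2 scale, from a mean of 10.03 to 7.84. TOD6 fell by 1.28. On the same list DOT6 changed by -0.39, whereas STB3 rose by 0.24. The activator SFP1 rose by 0.52 and the coactivator IFH1 by 0.23, while RAP1 fell by 0.34 and HMO1 by 0.46. FHL1, at 0.19 ± 0.18 (log2, SE), was not called. Of 9 genes for modifiers and ribosome-bound proteins 6 rose and 3 fell (median 0.89). STM1, which binds idle ribosomes, rose by 1.79 and RKM4, a methyltransferase of a large-subunit protein, by 1.72, and RKM1, another such enzyme, fell by 2.06.

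RPP1, the ribonuclease P gene matched by name alone, read 7.65 and 7.82 in the arrays labelled parental, 7.85 on both arrays of strain 1, 8.27 and 8.10 in strain 2, and 7.89 and 7.90 in strain 3. Its rise of 0.24 ± 0.06 (log2, SE) had adjusted p = 0.00658 by limma, and in single strains it was called only in strain 2.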

How the data were processed

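The deposited values were intensity values on a linear scale, made by the authors with RMA per the submitters' processing notes (background correction, quantile normalization between arrays and summary of the probes). The RMA version and annotation are not given in the sources used here. Log2 was taken here. Symbols came from the platform annotation, updated from the R64 annotation for 12 genes. Where a gene had several (47 genes, 7 of them described here), the probe set brightest on average was used. Background was the 95th percentile, on each array, of the 1746 listed probe sets whose gene was not in the S. cerevisiae annotation. The number of arrays, 2 per group, limits the precision.

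Linear models were fitted to 5449 genes on all 8 arrays with 1 coefficient per group (limma 3.58.1, R 4.3.3), and Benjamini-Hochberg adjustment within a contrast (under 0.05). A over B ratios of 52 pairs got the same fit, and both fits were tested on simulated data. The simulated arrays varied independently of strain. Arrays of a strain lay close together here, so that the simulations cannot show how the fits behave on these data. Genes named with values in every array were the 10 largest rises, all genes that did not rise, the 6 most unequal pairs, the 6 widest ranges among evolved strains and the stalk genes; some others were named by role after their values were seen. The genes and lists were chosen with earlier results of these data known. Alternatives were the normalization, probe set, filter, pseudocount, spread model, strain or replicate as a block, and each array left out. The planned description of promoters and proteins was not run, since no sequences were used here.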

Additional observations from a re-analysis of the deposited data

Results flagged for a closer look

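Differences among the evolved strains were called by limma's moderated F test (adjusted p under 0.05) in 56 of 75 genes, near the 68.9% of all genes. The widest ranges of strain means were 0.96 for RPL41A, 0.47 for RPL33B, 0.45 for RPL6B, 0.38 for RPL9A, 0.37 for RPL13A and 0.36 for RPL21B on the log2 scale. The RPL41A range rests on a strain whose 2 arrays differed by 0.95. Among the 6 most unequal pairs, the ratio of A to B also differed among evolved strains in RPL33, by 0.38, in RPL21, by 0.24, and in RPL9, by 0.11. Such differences in ratio were called in 12 of the 29 pairs of 60S genes, beside 44.2% of the 52 measured pairs.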

How the results depend on the processing

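Of the 75 genes, 71 to 72 were called higher and 2 lower in the mean comparison when each array was left out in turn, with a median of 0.92 to 0.96. The median was 0.86 with arrays centred on non-ribosomal genes, 0.90 with quantile normalization over the yeast probe sets, 0.99 with the mean of a gene's probe sets and 1.04 over the 69 genes with unique probe sets. With the strain as a random block no gene was called lower (0), and RPL6B, RPL14B, RPL23A, RPL33B, RPL36A and RPL41A lost their rise. RPL14B turned to -0.20 with the mean of its probe sets and -0.65 with the unique set. Genes called lower numbered 2 in strain 1 with the mean of probe sets and 2 with unique probe sets, and 0 in strain 2 under the quantile normalization. Leaving out single arrays gave 1 to 2 genes lower in strain 2, 2 to 3 in strain 3 and 1 in strain 1. Between strains 2 and 1 the count went from 17 to 26 with arrays centred on non-ribosomal genes, where 23 were lower in strain 2, to 26 with limma-trend, and from 5 to 24 with single arrays left out; the sign of its median followed the scaling. Strain 3 against strain 2 gave 63 with limma-trend and 22 to 55 with arrays left out, strain 3 against strain 1 gave 30 to 61, and the F test 32 to 65. The cause of these shifts was not tested. Replicate numbers did not pair the arrays: deviations of equal numbers correlated between -0.12 and 0.03, and a replicate block left 73 genes higher and 2 lower and 25 pairs called.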
